A study of Mus musculus with 12 samples.

Results

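The Hox genes encode homeodomain transcription factors and lie in 4 clusters, Hoxa, Hoxb, Hoxc and Hoxd. They were followed here in the embryonic mouse maxillary prominence, the part of the first pharyngeal arch that builds the upper jaw and palate. Every gene whose symbol is Hox followed by a cluster letter and a paralog number was taken, whatever its counts, which gave 39 of the 53801 genes in the files. RNA had been read in 12 bulk poly-A RNA-seq libraries of C57BL/6 wild type embryos with no transgene or treatment, with 3 libraries at each of 4 ages in embryonic days: E10.5, then E11.5, then E12.5, and lastly E14.5. Per the labels, intact prominences were dissected and each stage gave 3 independent RNA samples from 7 littermates. The labels leave unclear whether 7 embryos stand behind each sample or behind all 3. No separate litters are named, so a p-value here reflects library-to-library spread, which may be technical. The E14.5 libraries have protocol entries of their own, so that stage cannot be told apart from any difference in handling. The title of the first E14.5 library names several parts, and it was used as 1 library.

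Within a cluster, Hox genes with low paralog numbers are active earlier and further forward in the body than those with high numbers, an order called collinearity. The cranial neural crest that fills the first arch is known to arise in front of the Hox domain and to stay free of Hox expression, while Hoxa2 marks the crest of the arch behind it. Misexpressed Hox genes are known to impair the jaw skeleton that first arch crest makes, which is why jaw tissue is commonly described as Hox-negative.

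The libraries held between 28294837 and 33941430 counts in genes, so 1 count was worth 0.0295 to 0.0353 counts per 1e+06 gene counts (CPM). A Hox gene with no count in the 3 libraries of a stage could still lie at up to 0.0314 to 0.0329 CPM, the limit that 3 counts set. All 12 listed genes of maxillary mesenchyme, Prrx1, Msx1 and Lhx8 among them, had counts at every stage and summed to 1014 to 1896 CPM. Within each stage, replicate libraries differed by more than sampling noise. The second E10.5 library stood apart by 119 counts of Olig3, a dorsal hindbrain and spinal cord factor with 0 to 2 counts in the other 11 libraries, and by the highest neuronal marker sum, 543 CPM. The second E12.5 library had 246 counts and the third 150 counts of Olig2, a motor neuron progenitor factor. Several low Hox counts came mainly from the second library of E10.5 or of E12.5, and values without it are given where they move a result.

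The results turn first on the Hoxd cluster, which lies on chromosome 2 from position 74668310 to 74765142 (mm10). The 250 bases before the start of 3 of its genes with counts at E14.5 are shown with those of Hoxd13, a gene of the same cluster with hardly any, and of Hoxa2 on chromosome 6. Capitals mark matches on either strand to the TATA box (written TATAAA), the CCAAT box, a site shape bound by Hox and Pbx proteins together (written TGATNNAT) or a homeodomain core (written TAATTA), and the sequences are from RefSeq on GRCm38.p6, 5′ to 3′ along the gene.
Hoxd8: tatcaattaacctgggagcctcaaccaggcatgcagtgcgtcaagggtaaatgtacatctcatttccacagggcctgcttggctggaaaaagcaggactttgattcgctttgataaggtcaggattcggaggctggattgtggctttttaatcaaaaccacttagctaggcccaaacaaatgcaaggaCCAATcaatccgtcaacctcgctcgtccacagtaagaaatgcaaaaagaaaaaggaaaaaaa
Hoxd9: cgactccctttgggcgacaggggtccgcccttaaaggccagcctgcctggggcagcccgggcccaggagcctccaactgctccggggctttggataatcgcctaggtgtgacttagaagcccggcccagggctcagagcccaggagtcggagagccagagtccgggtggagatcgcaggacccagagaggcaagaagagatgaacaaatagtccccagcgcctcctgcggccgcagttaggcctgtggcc
Hoxd1: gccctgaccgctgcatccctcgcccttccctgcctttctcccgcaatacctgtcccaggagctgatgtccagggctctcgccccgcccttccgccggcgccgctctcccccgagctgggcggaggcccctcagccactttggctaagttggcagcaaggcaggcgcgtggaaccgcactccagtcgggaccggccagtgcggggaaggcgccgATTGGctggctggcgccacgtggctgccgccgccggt
Hoxd13: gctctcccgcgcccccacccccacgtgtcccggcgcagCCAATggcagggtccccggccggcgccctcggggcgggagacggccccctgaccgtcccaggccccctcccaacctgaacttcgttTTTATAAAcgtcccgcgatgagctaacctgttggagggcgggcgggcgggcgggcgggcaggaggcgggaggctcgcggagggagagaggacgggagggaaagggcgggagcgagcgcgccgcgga
Hoxa2: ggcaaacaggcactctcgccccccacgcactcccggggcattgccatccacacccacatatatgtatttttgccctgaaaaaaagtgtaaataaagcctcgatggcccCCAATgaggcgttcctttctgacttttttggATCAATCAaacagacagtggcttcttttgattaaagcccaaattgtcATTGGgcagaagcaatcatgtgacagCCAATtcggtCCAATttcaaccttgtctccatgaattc
These windows lie at chr2:74704365-74704614 for Hoxd8, chr2:74697513-74697762 for Hoxd9, chr2:74762730-74762979 for Hoxd1 and chr2:74667975-74668224 for Hoxd13, all on the plus strand, and at chr6:52164832-52165081 on the minus strand for Hoxa2. The Hoxd8 window held 1 CCAAT and none of the other marked motifs, and that of Hoxd9 held no marked motif. The Hoxd13 window, beside a gene with 2 counts at E14.5, held a run that matches TATAAA on both strands. Hoxa2 carried 4 matches to CCAAT and 1 to TGATNNAT. RefSeq windows, which run on for 50 bases past the start, were found for 22 of the 39 genes, 24 windows in all. CCAAT was in 15 of the 24, against 37.4% of all 32851 promoter windows. The other motifs were rarer: TATAAA in 4 of the 24, against 13.6% of all windows, TGATNNAT in 4, against 8.85%, and TAATTA in 2, against 5.29%. CpG pairs were counted over these longer windows, the 50 bases past the start included. They numbered 6 for Hoxd8 and 37 for Hoxd13, with medians of 14.5 over Hox windows and 7 over all windows. Such matches describe the letters only.

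Over all 12 libraries the 39 genes together had 3379 counts, of which 2777 came from E14.5. Their summed level was 1.30 ± 1.14 CPM at E10.5, 2.90 ± 1.07 CPM at E11.5, 2.22 ± 0.458 CPM at E12.5 and 30.6 ± 9.49 CPM at E14.5 (SD, n = 3 each). The 3 E14.5 libraries had 41.0, 22.4 and 28.3 CPM, against 1.75 to 2.66 CPM in the E12.5 libraries, so the stages did not overlap. At E10.5 the second library, which stood apart, held 83 of the 124 counts, and without it the mean was 0.642 CPM. Of the E14.5 counts, the Hoxd cluster held 69.9%, Hoxc 15.4%, Hoxa 13.4% and Hoxb 1.30%. Without Hoxd8 alone, the E14.5 sum was 16.5 ± 5.93 CPM. The label "Hox-free" thus described the first 3 stages more closely than E14.5.

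**Figure D1:**
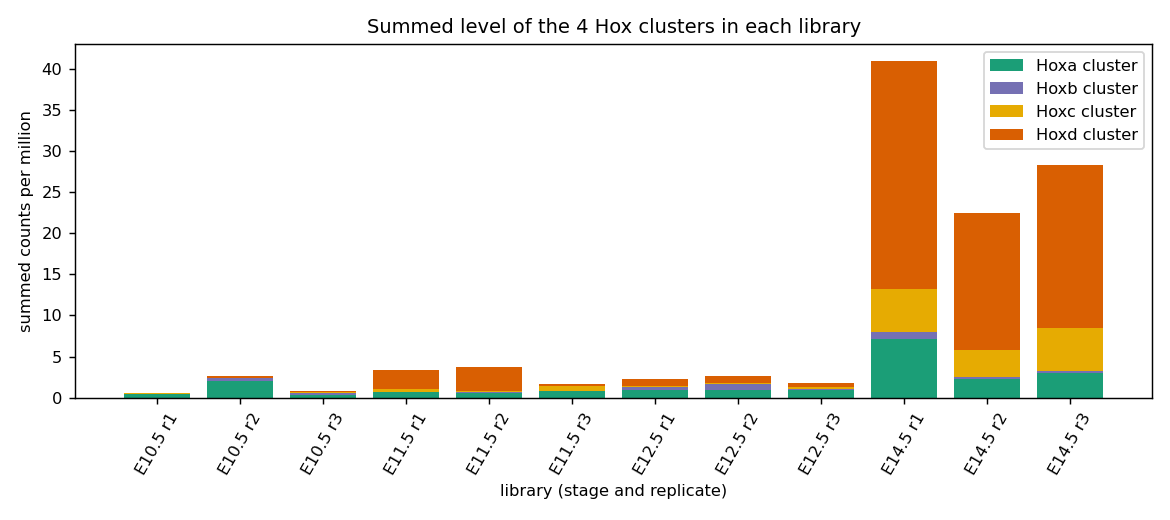
Summed CPM of the 4 Hox clusters, stacked, in each of the 12 libraries, which run along the x axis by stage and replicate. The E14.5 libraries reach 41.0, 22.4 and 28.3 CPM, and the Hoxd cluster is the tallest segment in each of them.

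Detection differed from gene to gene. Counts summed over the 3 libraries of a stage reached 10 for 3 Hox genes at E10.5, 5 at E11.5, 6 at E12.5 and 15 at E14.5, or 7.69%, 12.8%, 15.4% and 38.5% of the 39. The same floor was reached by 69.1%, 68.3%, 72.2% and 73.9% of the 21890 protein-coding genes at those stages. No count at all was found for 19, 18, 15 and 12 Hox genes at the 4 stages in turn. Hoxa6, Hoxb13, Hoxc9, Hoxc10, Hoxc11, Hoxd4 and Hoxd11 had none in any library. These are mostly trunk and tail genes, Hoxb13 being a gene of the tail end of the body axis, but Hoxd4 is a hindbrain gene whose reads are hard to assign. Only 47.7% of the exon bases annotated to Hoxd4 belong to it alone, and the libraries do not mark strand. A further 14 genes had 1 to 9 counts over all 12 libraries.

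**Figure D2:**
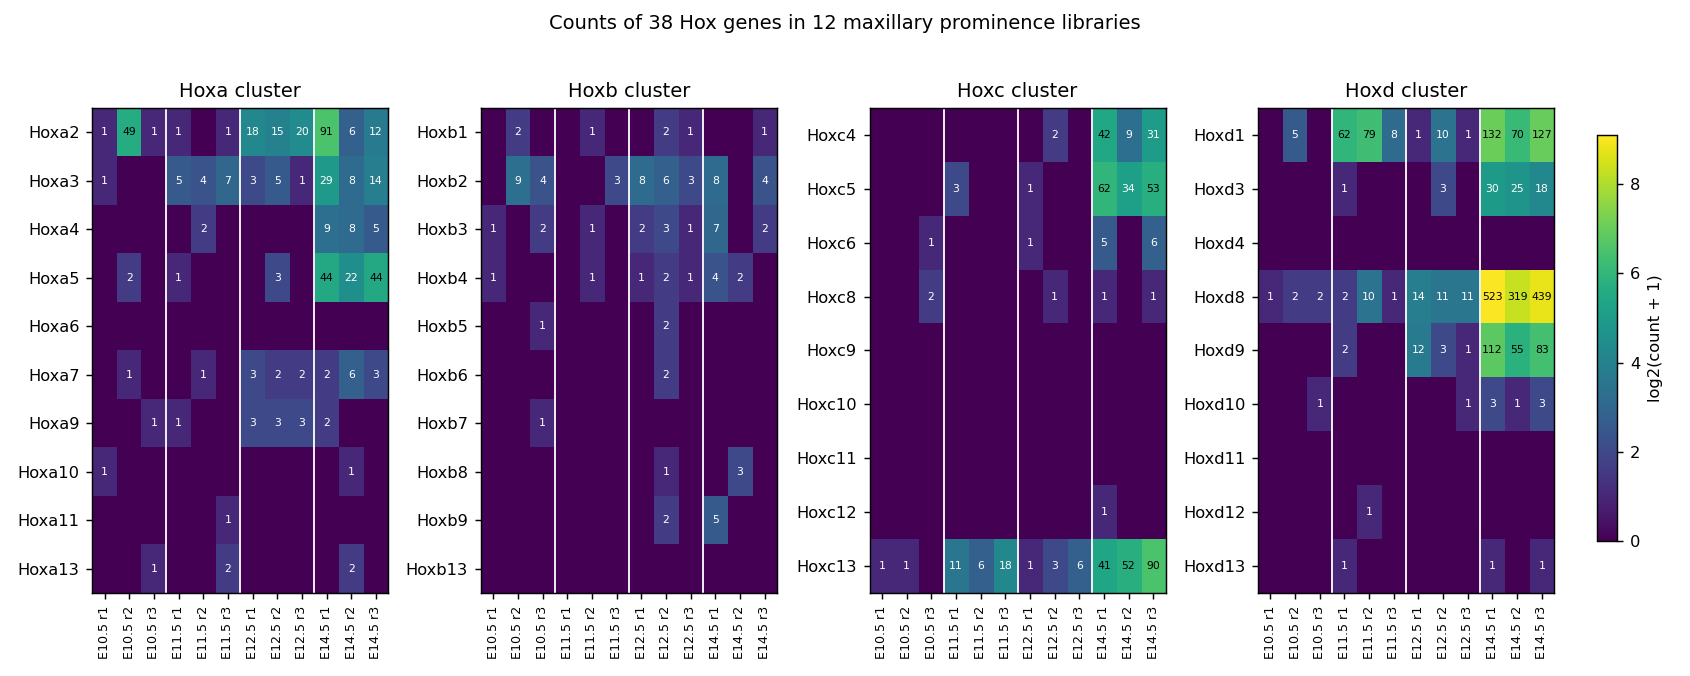
Deposited counts of 38 Hox genes (rows, by cluster and paralog number) in the 12 libraries (columns, by stage), with each count printed in its cell and the colour giving log2(count + 1). Counts gather in the 3 E14.5 columns, where Hoxd8 has 523, 319 and 439, while 7 rows are empty throughout.

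In the fit across all 18365 genes that passed the filter on low counts, 9 of the 39 Hox genes were tested, among them Hoxa2, Hoxa5, Hoxc5, Hoxc13, Hoxd1, Hoxd3, Hoxd8 and Hoxd9. Several of them passed that filter through their E14.5 counts alone, so their number called at E14.5 describes them and carries no weight of its own. Of the 9, 8 were higher at E14.5 than at E12.5 (edgeR's quasi-likelihood test, Benjamini-Hochberg adjusted over all genes tested) and none was lower. Of all genes tested, 47.1% were called in that comparison, with 23.0% of genes higher and 24.0% lower. Between E14.5 and E10.5, 7 were higher and none lower, beside 70.4% of all genes called and 36.6% called higher. The joint test of the 4 stages called 8, beside 81.6% of all genes. The median log2 fold change over all genes lay within 0.1 of 0 in each comparison.

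Hoxd8 was the main Hox transcript of the E14.5 prominence. This gene of the middle of the Hoxd cluster (ENSMUSG00000027102, chromosome 2, 74704615 to 74707933, plus strand) is known for its part in trunk patterning. It had 1, 2 and 2 counts in the E10.5 libraries, 2, 10 and 1 at E11.5, 14, 11 and 11 at E12.5, and 523, 319 and 439 at E14.5. Every E14.5 library stood far above every earlier one. Its level was 14.1 ± 3.59 CPM at E14.5, against 0.387 ± 0.052 CPM at E12.5 (SD, n = 3 each), a ratio of pooled counts of 36.3 with a 95% interval of 26.1 to 52.0. The fitted log2 fold change was 5.09 (SE 0.39, edgeR adjusted p = 5.33e-07), and 7.66 (SE 0.50, adjusted p = 2.15e-08) for E14.5 against E10.5. At 5.15 CPM per kilobase of exon it lay at the 64.3 percentile of protein-coding genes at E14.5. Its exons overlap no exon of another gene in the annotation used here. The antisense gene Hoxd3os1 spans it, from 74703248 to 74716130, and the libraries do not mark strand. Unspliced reads of Hoxd3os1 there cannot be told apart from those of Hoxd8.

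Hoxd9, the next gene toward the high-numbered end and known for limb and axial patterning, followed the same course at a lower level. It had no count at E10.5, 2, 0 and 0 counts at E11.5, 12, 3 and 1 at E12.5, and 112, 55 and 83 at E14.5. The first E12.5 library thus held most of that stage's counts. Hoxd9 averaged 2.76 ± 1.01 CPM at E14.5, against 0.171 ± 0.187 CPM at E12.5 (SD, n = 3 each), with a log2 fold change of 3.88 (SE 0.64, edgeR adjusted p = 0.000501). Against E10.5, where it had no count, it was at least 87.5-fold higher at E14.5, taking 3 counts over the stage as the floor. With the share of reads outside genes as a covariate, the E14.5 against E12.5 call was lost (adjusted p = 0.0528). That share was 5.78% to 6.21% at E14.5 and 5.03% to 5.43% at E12.5.

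On the other side of Hoxd8, Hoxd3 lies on the low-numbered side of the cluster and takes part in forming the neck vertebrae. It had no count at E10.5, 1, 0 and 0 counts at E11.5, 0, 3 and 0 at E12.5, and 30, 25 and 18 at E14.5. The E14.5 libraries did not overlap the others. Its log2 fold change at E14.5 against E12.5 was 4.41 (SE 0.79, edgeR adjusted p = 0.000878), with a pooled ratio of 24.8 (95% interval 8.16 to 123). All 3 of its E12.5 counts came from the second library, which stood apart, and without it the fitted change was 7.49 (edgeR adjusted p = 0.000882). This call too was lost with the covariate (adjusted p = 0.0911). Of the exon bases of Hoxd3 only 37.2% are its own, the rest being shared with Hoxd4, Gm28230, Hoxd3os1 and Haglr, so its level is uncertain.

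Hoxd1, at the low-numbered end, was high at E11.5 as well as at E14.5. In mice it is known in sensory neurons that detect painful stimuli. It had 0, 5 and 0 counts at E10.5, 62, 79 and 8 at E11.5, 1, 10 and 1 at E12.5, and 132, 70 and 127 at E14.5. The third E11.5 library was low and lay beneath the highest E12.5 library, while all E14.5 libraries lay above all E12.5 ones. Hoxd1 averaged 1.6 ± 1.2 CPM at E11.5, against 0.0525 ± 0.0909 CPM at E10.5, with a log2 fold change of 4.80 (SE 1.05, edgeR adjusted p = 0.00467). From there it was lower at E12.5, with 0.128 ± 0.166 CPM and a log2 fold change of -3.79 (SE 0.91, adjusted p = 0.00419). At E14.5 it averaged 3.6 ± 1.06 CPM, a log2 fold change of 4.67 against E12.5 (SE 0.89, adjusted p = 0.000863). The counts at E10.5 and most of those at E12.5 came from the libraries that stood apart. Without the second E10.5 library the E11.5 against E10.5 change was 8.80 (edgeR adjusted p = 0.00545), and without the second E12.5 library the E12.5 against E11.5 change was -5.67 (adjusted p = 0.00364) and the E14.5 against E12.5 change 6.54 (adjusted p = 0.001004).

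**Figure D3:**
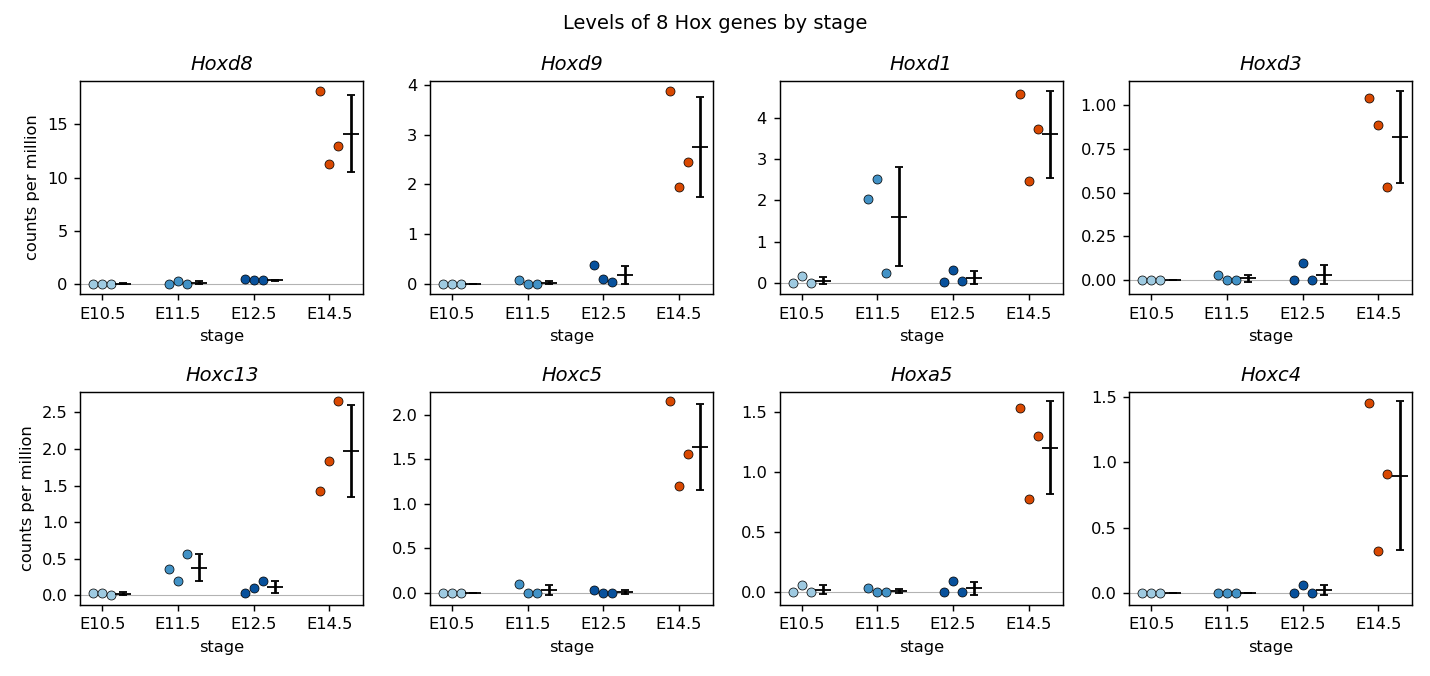
Level in CPM (y axis, 1 panel a gene) of 8 Hox genes at the 4 stages (x axis), with a dot for each library and a mean with its SD for each stage (n = 3). Hoxd8 averages 14.1 CPM at E14.5 and 0.387 CPM at E12.5, and Hoxd1 is also high in 2 of the 3 E11.5 libraries.

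The rest of the Hoxd cluster was close to empty. Hoxd10 had 3, 1 and 3 counts at E14.5, against 0, 0 and 1 at E12.5. Hoxd13, the digit and genital gene at the high-numbered end, had 1, 0 and 1 counts at E14.5. Hoxd12 had 1 count in all 12 libraries, and Hoxd4 and Hoxd11 had none. Per kilobase of exon the E14.5 level was 1.93 CPM for Hoxd1, 0.195 CPM for Hoxd3, 5.15 CPM for Hoxd8, 1.29 CPM for Hoxd9, 0.0418 CPM for Hoxd10 and 0.00861 CPM for Hoxd13. The order of levels was thus not the order of the genes: Hoxd8 stood highest, with lower levels on both sides of it.

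**Figure D4:**
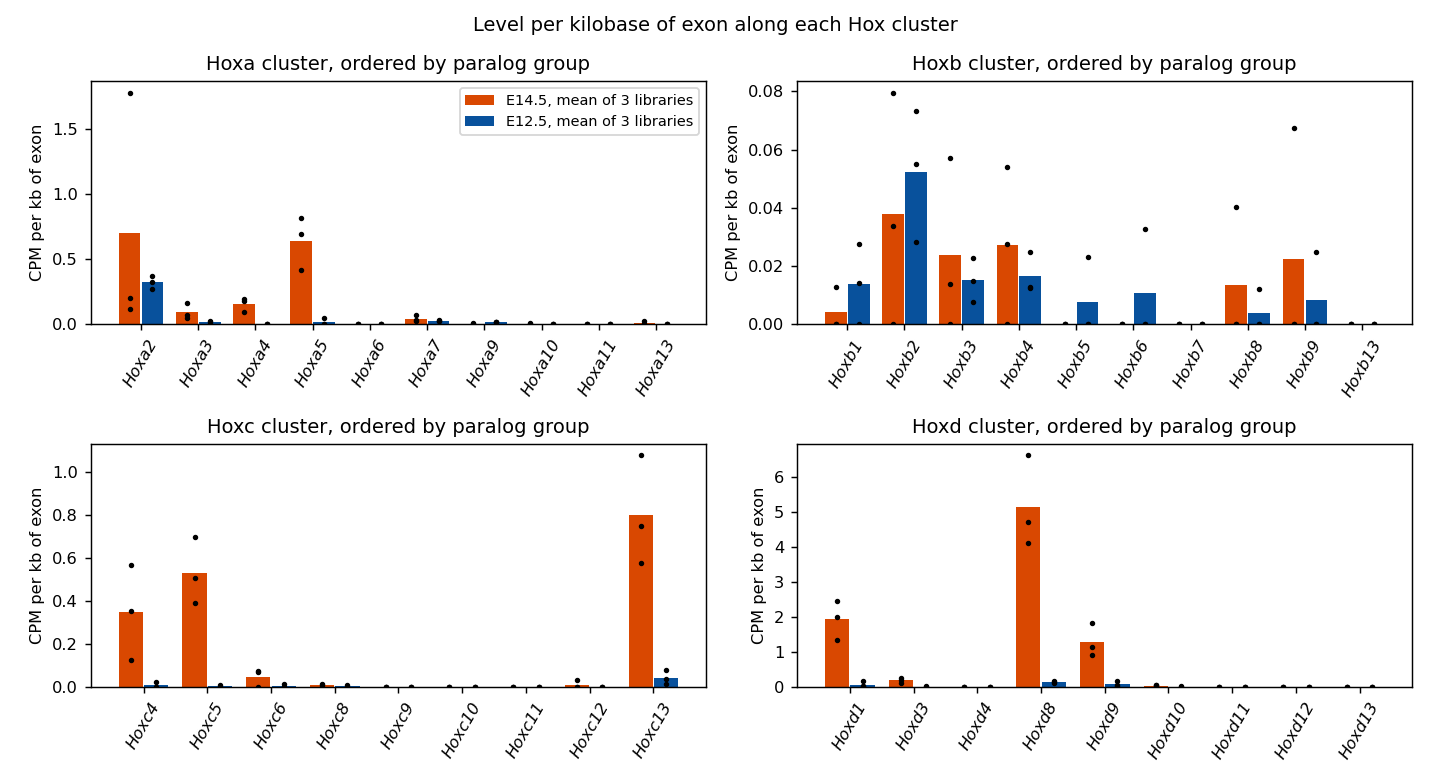
Level in CPM per kilobase of exon of 38 Hox genes, in the order of paralog numbers within each cluster, at E14.5 (left bar) and E12.5 (right bar), where bars are stage means and dots are the 3 libraries. Hoxd8 reaches 5.15 CPM per kilobase at E14.5, Hoxd1 1.93 and Hoxd9 1.29, while the Hoxb genes stay near 0.

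Noncoding genes of the Hoxd cluster were counted as well. Haglr, a long noncoding RNA transcribed from the stretch between Hoxd1 and Hoxd3, had 2, 0 and 0 counts at E10.5, 2, 12 and 1 at E11.5, 0, 3 and 0 at E12.5, and 96, 38 and 49 at E14.5. Its E14.5 libraries all lay above the others, with a log2 fold change of 5.72 against E12.5 (SE 0.93, edgeR adjusted p = 0.000273). Hoxd3os1, which runs antisense to Hoxd3, had 15, 11 and 22 counts at E14.5, against 0, 2 and 0 at E12.5 (log2 fold change 4.27, SE 0.81, adjusted p = 0.0012). Because the kit does not mark strand, Hoxd3 and these overlapping transcripts cannot be told apart where they overlap. Outside the cluster, Mtx2, a mitochondrial import gene on the Hoxd1 side, was lower, at 74.2 ± 4.97 CPM at E14.5, against 106 ± 13.3 CPM at E12.5 (log2 fold change -0.60, SE 0.13, adjusted p = 0.00242). Evx2, a homeobox gene next to Hoxd13, had 0, 2 and 0 counts at E14.5, against 0, 3 and 0 at E12.5.

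In the Hoxc cluster (chromosome 15, 102921103 to 103036852), most counts came from genes at the ends and few from those between. Hoxc13 at one end controls hair and nail keratins. It had 1, 1 and 0 counts at E10.5, 11, 6 and 18 at E11.5, 1, 3 and 6 at E12.5, and 41, 52 and 90 at E14.5. All E14.5 libraries were above all earlier ones, and E11.5 lay above E10.5 without overlap. Hoxc13 averaged 1.97 ± 0.625 CPM at E14.5, against 0.109 ± 0.0836 CPM at E12.5 (log2 fold change 4.07, SE 0.53, edgeR adjusted p = 4.66e-05). The step at E11.5 against E10.5 had a log2 fold change of 3.90 (SE 0.79, adjusted p = 0.00292). At E12.5 against E11.5 it was -1.97 (SE 0.59, adjusted p = 0.0151), and this call was lost without the third E11.5 library (adjusted p = 0.0782).

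Hoxc5 and Hoxc4, genes of the neck and forelimb level at the other end of the cluster, were seen almost only at E14.5. Hoxc5 had 62, 34 and 53 counts at E14.5, against 1, 0 and 0 at E12.5, after 3, 0 and 0 at E11.5 and none at E10.5. Its pooled ratio at E14.5 against E12.5 was 152 (95% interval 26.9 to 6041), and the fitted log2 fold change was 6.69 (SE 0.84, edgeR adjusted p = 7.40e-05). Hoxc4 had 42, 9 and 31 counts at E14.5, against 0, 2 and 0 at E12.5, and no count before. It did not pass the filter, and its pooled ratio was 41.8 (95% interval 11.2 to 351). Both of its E12.5 counts came from the second library, and without that library it was at least 18.5-fold higher at E14.5. The second E14.5 library was the lowest for both genes. Hoxc6, their neighbour, had 5, 0 and 6 counts at E14.5, against 1, 0 and 0 at E12.5, and Hoxc8, Hoxc9, Hoxc10, Hoxc11 and Hoxc12 had between 0 and 5 counts each in all libraries together.

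In the Hoxa cluster on chromosome 6, Hoxa5, a gene of the neck and upper chest known for lung development, was all but silent until E14.5. It had 0, 2 and 0 counts at E10.5, 1, 0 and 0 at E11.5, 0, 3 and 0 at E12.5, and 44, 22 and 44 at E14.5. At E14.5 it averaged 1.2 ± 0.384 CPM, against 0.0320 ± 0.0555 CPM at E12.5, a pooled ratio of 37.4 (95% interval 12.5 to 184) with a log2 fold change of 4.96 (SE 0.79, edgeR adjusted p = 0.000226). Its E12.5 counts too were all in the second library, and without it the fitted change was 8.05 (adjusted p = 0.000344). Its neighbours were weaker. Hoxa3, needed for the thymus and other derivatives of the arch behind Hoxa2's, had 1, 0 and 0 counts at E10.5, 5, 4 and 7 at E11.5, 3, 5 and 1 at E12.5, and 29, 8 and 14 at E14.5. Only 72.9% of the exon bases of Hoxa3 are unshared, so its level is uncertain. Hoxa4 had 0, 2 and 0 counts at E11.5, none at E10.5 or E12.5, and 9, 8 and 5 at E14.5. Against E12.5 it was at least 7.48-fold higher at E14.5. Hoxa7 had 2, 6 and 3 counts at E14.5, against 3, 2 and 2 at E12.5, a pooled ratio of 1.60 whose 95% interval of 0.567 to 4.87 includes 1. Hoxa9 had 2, 0 and 0 counts at E14.5 and 3 in each E12.5 library. Hoxa10, Hoxa11 and Hoxa13, genes of the distal limb and hind trunk, had 1 to 5 counts each over all libraries.

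Hoxa2, the selector gene of second arch identity (ENSMUSG00000014704, chromosome 6, 52162417 to 52164831, minus strand), differed widely between replicate libraries of the same stage. It had 1, 49 and 1 counts at E10.5, 1, 0 and 1 at E11.5, 18, 15 and 20 at E12.5, and 91, 6 and 12 at E14.5. At E10.5 the second library held 49 of the 51 counts, whereas the E12.5 libraries were alike. At E14.5 the first library, whose title names several parts, held 91 of 109. None of the 4 comparisons called Hoxa2 in the filtered table: the log2 fold change was 1.02 at E14.5 against E12.5 (SE 1.06, edgeR adjusted p = 0.455) and 4.31 at E12.5 against E11.5 (adjusted p = 0.0695). The joint test over the stages missed the threshold as well (adjusted p = 0.0690). In the fit without a filter the edgeR adjusted p at E11.5 against E10.5 was 1.55e-08. With the filter it was 0.0921, at the same log2 fold change of -4.51. The unfiltered fit thus allowed Hoxa2 less spread between replicates, and its calls weigh less. It called Hoxa2 lower at E11.5 against E10.5, higher at E12.5 against E11.5 and in the joint test. Beside these calls stand 14.0%, 26.5% and 46.1% of all genes, and they depended on the filter. The first of these rests on the second E10.5 library. Hoxaas2, a noncoding gene just upstream of it on the opposite strand, had 24 counts in the second E10.5 library and 0 in the other 2, and 68, 9 and 15 at E14.5. At E12.5 Hoxaas2 had 1, 12 and 1 counts. Both genes were highest in the same library at E10.5 and at E14.5, whereas at E12.5 Hoxaas2 was highest in the second library, the one lowest in Hoxa2.

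**Figure D5:**
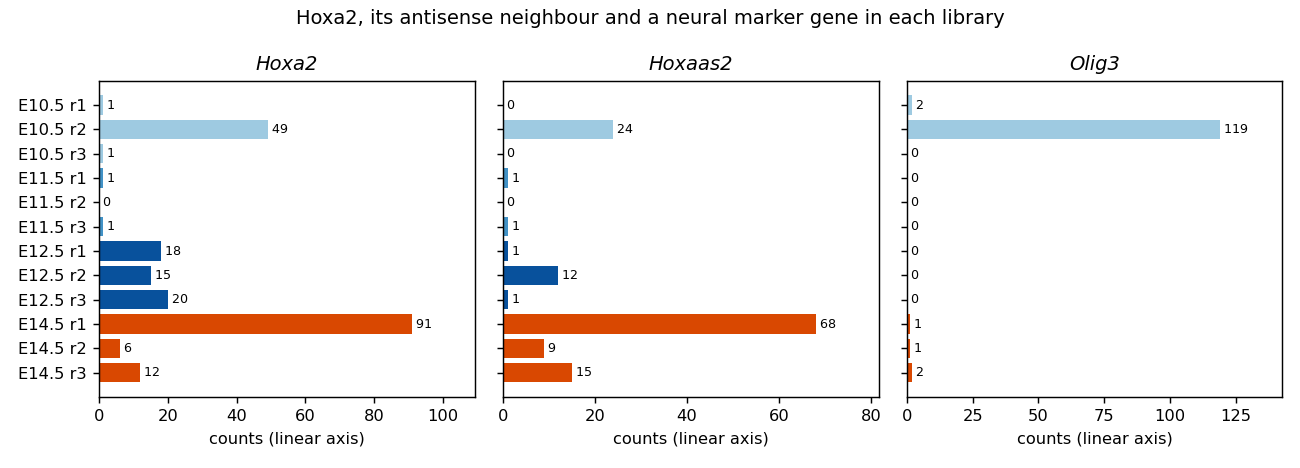
Deposited counts (x axes) of Hoxa2, its noncoding neighbour Hoxaas2 and the neural factor Olig3 in each of the 12 libraries (rows). Hoxa2, Hoxaas2 and Olig3 have 49, 24 and 119 counts in the second E10.5 library, whereas the first E14.5 library has 91 counts of Hoxa2 and 68 of Hoxaas2.

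The second E10.5 library that held the Hoxa2 counts was also the one with 119 counts of Olig3 and 26 of Dbx1, genes of hindbrain and spinal cord progenitors. The spinal cord list summed to 6.05 CPM there, against 2.91 and 0.847 CPM in the other E10.5 libraries. Hoxb2, which guides facial motor neurons in the hindbrain, had 0, 9 and 4 counts at E10.5, with the most in the same library. The hindbrain list summed to 91.6 CPM in that library, against 68.7 and 86.7 CPM. The part of such cells in the Hoxa2 counts was not tested. The E14.5 libraries, of which the first was high in Hoxa2, had 1, 1 and 2 counts of Olig3 but 252, 250 and 262 counts of Dbx1, which was at 5, 17 and 22 at E12.5. Of the exon bases of Hoxa2, 85.0% are unshared, the remainder lying under the readthrough gene Gm28308.

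The Hoxb cluster (chromosome 11, 96194316 to 96368256) stayed near the floor at every stage. Its 10 genes had 21 counts together at E10.5, 6 at E11.5, 37 at E12.5 and 36 at E14.5. Hoxb2 was the most often counted, with 8, 0 and 4 counts at E14.5 and 8, 6 and 3 at E12.5. Hoxb3 had 7, 0 and 2 counts at E14.5 and 2, 3 and 1 at E12.5, and Hoxb4 had 4, 2 and 0 at E14.5 and 1, 2 and 1 at E12.5. These stages overlapped for all 3 genes. Only 72.7% of the exon bases of Hoxb2 and 47.1% of those of Hoxb3 are unshared, so reads of both are hard to assign. Hoxb5 to Hoxb9, trunk genes, had single to few counts in isolated libraries, such as 5 of Hoxb9 in the first E14.5 library. No Hoxb gene passed the filter. In the fit without a filter the 9 with counts were tested and none was called by edgeR, beside 25.2% of all genes at E14.5 against E12.5 and 38.6% at E14.5 against E10.5. Hoxb2 alone had an unadjusted p under 0.05, at E11.5 against E10.5 (edgeR adjusted p = 0.221) and at E12.5 against E11.5 (adjusted p = 0.0945). The second library, which stood apart at both stages, held 11 of the 21 counts at E10.5 and 20 of the 37 at E12.5.

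In the earlier steps 22.2% and 33.3% of the 9 tested Hox genes were called, no more than the share of all genes. At E11.5 against E10.5, 2 of the 9 tested Hox genes were called, Hoxd1 and Hoxc13, both higher, beside 25.1% of all genes called and 12.2% called higher. At E12.5 against E11.5, 3 were called, Hoxd1 and Hoxc13 among them, all lower, beside 49.3% of all genes called and 22.2% called lower. All 3 of these lower calls were lost when the share of reads outside genes entered as a covariate, with adjusted p of 0.911 for Hoxd1 and 0.992 for Hoxc13. That share was 5.03% to 5.43% at E12.5 and 2.16% to 2.42% at E11.5, so the stage and the share cannot be told apart. None of the 9 was called higher at E12.5, beside 27.1% of all genes, and Hoxd8 and Hoxd9 had log2 fold changes of 1.25 and 2.61 that did not pass the test (edgeR adjusted p = 0.0710 and 0.0870). Without a filter the split was 3 higher, Hoxa2, Hoxd8 and Hoxd9, and 3 lower, of 32 tested, beside 26.5% of all genes called. That fit allowed Hoxa2 less spread between replicates, so its calls weigh less.

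The shares of paralog groups among the Hox counts differed between stages. Genes of groups 1 to 3, which serve hindbrain and neck, held 23.3% of the Hox counts at E14.5, against 83.9% at E10.5. Their own level was higher at E14.5, at 7.16 ± 3.66 CPM, against 1.09 ± 1.16 CPM at E10.5 (SD, n = 3 each). Of their 104 counts at E10.5, 77 came from the second library, and without it their share was 65.9%. Groups 4 to 8 held 60.4% at E14.5 and groups 9 to 13 held 16.3%. Hoxd8 alone made up most of the middle group. Among all 39 genes, 12 had every E14.5 library above every E12.5 library and 1, Hoxa9, had every one below. Those 12 are 30.8% of the Hox genes, beside 25.3% of protein-coding genes and 13.2% of all genes in the files. The 1 below is 2.56%, beside 17.7% of protein-coding genes and 8.96% of all genes.

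Set against other homeobox genes of the face, the Hox genes were low at every stage. The 13 Dlx, Msx, Alx and Prrx genes summed to 931 to 989 CPM in the E14.5 libraries, where the Hox genes summed to 22.4 to 41.0 CPM. Per kilobase of exon, Prrx1 stood at 44.3 CPM and Msx1 at 30.4 CPM at E14.5. Hoxd8, at 5.15 CPM per kilobase, lay above 4 of those 13 genes at E14.5, Msx2 among them, and above 1, Dlx4, at E12.5. At E10.5 it lay above none, at 0.0191 CPM per kilobase.

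The proteins that bind DNA together with Hox factors were present throughout. All 9 Pbx, Meis and Pknox genes were tested. At E14.5 against E12.5, 7 were lower and 1 was higher, beside 24.0% of all genes lower and 23.0% higher. The list median was -0.60 on the log2 scale, beside -0.01 over all genes. Pbx2 was at 107 ± 1.15 CPM at E14.5, against 195 ± 12.4 CPM at E12.5 (log2 fold change -0.94, SE 0.08, edgeR adjusted p = 1.78e-06), and Meis2 at 92.1 ± 16 CPM, against 164 ± 21.2 CPM (log2 fold change -0.91, SE 0.12, adjusted p = 3.98e-05). Pknox1 was the one that was higher, at 42.3 ± 2.67 CPM, against 33.8 ± 1.62 CPM.

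Of 33 listed regulators of Hox clusters, covering Polycomb and Trithorax genes, Cdx factors and retinoic acid enzymes and receptors, 31 were tested. At E14.5 against E12.5, 18 were lower and 1 was higher (list median -0.41 on the log2 scale), beside 24.0% of all genes lower and 23.0% higher. Cbx2, a Polycomb subunit, was at 60.5 ± 1.43 CPM at E14.5, against 132 ± 12.2 CPM at E12.5 (log2 fold change -1.19, SE 0.08, edgeR adjusted p = 2.09e-07). Cyp26a1, which breaks down retinoic acid, was at 4.23 ± 0.162 CPM, against 17.7 ± 1.38 CPM (log2 fold change -2.14, SE 0.17, adjusted p = 9.21e-07), and Cyp26c1 of the same family had a log2 fold change of -1.51. Cyp26b1, the most abundant of that family, stood at 62.2 ± 4.72 CPM, against 58.7 ± 12.7 CPM, and was not called (adjusted p = 0.921), while Aldh1a2, which makes retinoic acid, was lower, at 70.7 ± 3.95 CPM, against 153 ± 29 CPM (log2 fold change -1.18, SE 0.24, edgeR adjusted p = 0.00128). These last genes were chosen after their values were seen. Egr2, a hindbrain and Schwann cell factor, was the gene that was higher, at 0.564 ± 0.0681 CPM, against 0.0539 ± 0.0490 CPM. Cdx2, a trunk factor, had no count in any library, and Cdx1 had none at E14.5.

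Marker genes of several cell types also differed between E14.5 and E12.5. In bulk RNA, more cells of a type and more RNA per cell cannot be told apart. Of all genes tested in this comparison, 23.0% were higher and 24.0% lower, which the numbers called in short lists should be read beside. The 6 listed mast cell genes summed to 142, 99.8 and 127 CPM in the E14.5 libraries, against 0.396 to 0.961 CPM at E12.5, and all 5 that were tested were higher. Muscle genes summed to 453 to 523 CPM at E14.5, against 51.6 to 88.4 CPM at E12.5, with all 6 higher. Endothelial genes summed to 431 to 508 CPM, against 267 to 370 CPM, and leukocyte genes to 270 to 324 CPM, against 172 to 209 CPM. Genes of trunk mesoderm, somites and limb summed to 88.1 to 113 CPM, against 45.7 to 67.5 CPM, with 5 of 9 higher and 2 lower, and Uncx, a somite gene among them, at 0 counts at E14.5. The spinal cord list summed to 8.84 to 10.1 CPM at E14.5, against 0.894 to 9.20 CPM at E12.5, with 2 of the 4 tested higher and 1 lower. Of the lists that follow, the mandibular one was higher at E14.5 and the neuronal one overlapped between the stages. The others were lower. Genes of hindbrain and cranial motor neurons summed to 54.9 to 70.9 CPM, against 72.5 to 118 CPM, with 1 of 8 higher and 4 lower. Neuronal genes summed to 55.6 to 154 CPM, against 56.8 to 278 CPM, with none of 7 higher and 4 lower. Kidney and gut genes summed to 0.560 to 0.763 CPM, against 2.37 to 3.33 CPM, with Cdx2 at 0. Mandibular genes summed to 108 to 113 CPM, against 66.8 to 90.5 CPM, with 3 of 5 higher and 2 lower. The maxillary mesenchyme genes were mostly lower at E14.5, 8 of 12, with 1 higher. The part of any of these cells in the Hox counts was not tested.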

How the data were processed

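Poly-A RNA-seq was analysed in 12 libraries. The authors deposited whole-number counts per Ensembl gene for each library; the labels' protocols describe poly-T selection and a kit that does not mark strand, and the submitters' processing notes list FastQC, STAR 2.7.3a, HTSeq 0.12.4 and the build mm10. The counting mode is not given in the sources used here, nor is the annotation release. Symbols and coordinates came from GENCODE M21 for 53620 of 53801 genes. The closing entries of each file that name no gene (14.3% to 18.6% of the file's total, 6.31% to 6.90% as ambiguous reads) stayed out of library sizes and tests. CPM is counts per 1e+06 gene counts; per-kilobase levels divide it by the merged exon length.

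Groups were the 4 labelled stages. The test was edgeR 4.0.16 (R 4.3.3) with TMM scaling, filterByExpr at a minimum count of 10, 1 mean per stage over all 12 libraries, quasi-likelihood F tests and Benjamini-Hochberg adjustment over 18365 genes at 0.05. Standard errors are the fold change divided by the square root of F. Ratios of pooled counts have exact 95% intervals, and bounds use 3 counts over a stage; both cover counting error only. Scripts were tested on simulated data. The alternatives included limma 3.58.1 (voom) and DESeq2 1.42.0.

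The members and the gene lists were chosen with earlier results of these data known. All 39 genes enter the sums and counts of genes. Those with 10 or more counts in at least 1 stage are given by library, some of them for only part of the stages. Those called are also given with fold change, SE and adjusted p. A few items are not reported here. From each list of other genes, up to 4 called genes with the largest change are named, with some markers beside results.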

Additional observations from a re-analysis of the deposited data

How the results depend on the processing

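Under every alternative run, Hox genes called at E14.5 numbered within 1.5 times of 8 against E12.5 and of 7 against E10.5. They were fewer, 6 and 5, with the share of reads outside genes as a covariate. The number tested changed with the filter, so these counts do not compare like with like. The fit without a filter gave Hoxa2 and Hoxd8 far smaller p than the main fit at nearly equal fold changes. Its calls are therefore not an equal alternative. Without any filter, 11 of 32 tested Hox genes were called at E14.5 against E12.5, beside 25.2% of all genes. At E14.5 against E10.5 it was 10 of 32, beside 38.6% of all genes. In the same fit, 4 of the 32 were called at E11.5 against E10.5, beside 14.0% of all genes. At E12.5 against E11.5, 6 were called, 3 higher and 3 lower, beside 26.5% of all genes. A minimum count of 3 tested 14 Hox genes. Fitting the compared stages alone tested 1 Hox gene at E11.5 against E10.5 and called 0 with edgeR, 0 at an unadjusted p under 0.05, beside 3 by DESeq2 and 2 by limma-voom over all stages. At E12.5 against E11.5, the covariate left 0 called with edgeR, 1 at an unadjusted p under 0.05, beside 5 by DESeq2 and 3 by limma-voom without it; the cause was not tested. A floor of 30 counts over a stage was reached by 1 Hox gene at E10.5, 3 at E11.5 and 2 at E12.5, and 3 counts in every library by 1 at E10.5. Leaving out 1 library at a time gave 2 to 3 calls at E11.5 against E10.5, 2 to 4 at E12.5 against E11.5, 8 to 10 at E14.5 against E12.5, 7 to 10 at E14.5 against E10.5, 8 to 11 in the joint test and 9 to 11 genes past the filter. Of 416 values of single genes under alternatives, 408 kept direction and call, 8 lost the call and 0 changed direction. These values cover only the 20 pairs of gene and comparison that the main fit had called, refitted on the same libraries. Their agreement is thus not independent support. Correlations of deviations between same-numbered libraries ran from -0.119 to 0.149 and were not over 0.1 for every pair of any comparison, so the numbers were not taken to pair libraries; as a hint from the data, 6 of 6 libraries correlated best with their own number at E11.5 against E10.5, 4 of 6 at E12.5 against E11.5 and 0 of 6 in both E14.5 comparisons. A replicate block called 2, 4, 8 and 7 Hox genes in the 4 comparisons, against 2, 3, 8 and 7 without it, and 8 in the joint test. The sums and paralog group shares without libraries that stood apart were added after seeing the data; at E12.5 the sum was 2.01 CPM without the second library and 2.46 CPM without the third, beside 2.22 CPM. Most Hox genes lie where single counts decide a value, so a gene with no count was not detectable at this depth.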
